A study of Mus musculus with 14 samples.

Results

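The BCL2 family was examined in granulosa cells (GCs), the somatic cells that line the ovarian follicle and nurse the oocyte, through 10 of its genes: the pro-survival genes Bcl2, Bcl2l1, Bcl2l2 and Mcl1, the effector genes Bax, Bak1 and Bok, and the BH3-only genes Bad, Bid and Bcl2l11. They were chosen by name and matched by Ensembl identifier, and all 10 were found among the 55414 genes of the count table. The table holds 14 libraries of about 50 GCs each from antral follicles of 12-wk-old female mice. There were 4 libraries from db/db mice (B6.BKS(D)-Leprdb/J, genotype db/db -/-), which are functionally deficient for the long form of the leptin receptor, and 4 from their lean controls (CT db, genotype given as db/db +/+, wild type). From ob/ob mice there were 3 libraries (B6.Cg-Lepob/J, genotype ob/ob -/-), which are functionally deficient for leptin, and 3 from their lean controls (CT ob, ob/ob +/+, wild type). The mutation is carried by the whole animal in both models, the controls were lean littermates, and the model cannot be told apart from its mouse colony where the models are compared. The control columns are headed as heterozygous while the labels give wild type, which was not settled here. Nothing in the labels ties each library to a separate animal, so p-values measure the spread between these libraries.

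Follicles that stop growing are lost by atresia, in which the GCs die by apoptosis. Whether a cell crosses that line is set in large part at the outer mitochondrial membrane. The effectors Bax and Bak1 assemble into pores that release cytochrome c, the pro-survival proteins hold them and their activators back, and the BH3-only proteins carry death signals to both. All 3 classes meet through the BH3 domain, a short helix that fits into a groove of the pro-survival proteins. Much of the control of these proteins, such as phosphorylation of Bad, cleavage of Bid and rapid turnover of Mcl1, happens after transcription and is not measured by RNA-seq.

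A short coding pattern found in 9 of these 10 genes is shown as a description of them, while their levels differed widely. The core of the BH3 domain was searched in frame, on the coding strand, as any leucine codon, any 3 codons, any codon for glycine, alanine or serine and any codon for aspartate. It was found exactly once in the canonical coding sequence of 9 of the 10 members. Each line gives 30 bases, 5′ to 3′, from the GENCODE transcript (GRCm39), with the leucine codon and the last 2 codons of the core in capitals.
Bcl2: ctgaccCTCcgccgggctGGGGATgacttc
Bcl2l1: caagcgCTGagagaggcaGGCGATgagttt
Mcl1: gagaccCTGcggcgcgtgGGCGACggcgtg
Bax: gagtgtCTCcggcgaattGGAGATgaactg
Bak1: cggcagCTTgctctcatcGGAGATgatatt
Bok: acagtgCTGctgcgcttgGGAGATgagctg
Bad: cgtgagCTCcgaaggatgAGCGATgagttt
Bid: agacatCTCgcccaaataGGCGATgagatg
Bcl2l11: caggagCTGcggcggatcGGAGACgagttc
The effectors Bax, Bak1 and Bok had the same 6 bases, GGAGAT, at the end of the core, and Bad was the only one of these 9 with a serine codon (AGC) where the others had a glycine codon. The letters were not found in the canonical coding sequence of Bcl2l2. Such a short core is common, and 34.0% of 21770 canonical coding sequences held it (13.3% with glycine). The match is therefore a description of the members and not a way to find them.

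All 9 stretches are coding exon sequence. On the minus strand lie those of Bcl2 (chr1:106640308-106640337, exon 1 of 2), Bcl2l1 (chr2:152671620-152671649, exon 2 of 3), Bax (chr7:45115424-45115453, exon 3 of 6), Bak1 (chr17:27241508-27241537, exon 4 of 6) and Bid (chr6:120874253-120874282, exon 4 of 6). On the plus strand lie those of Mcl1 (chr3:95566741-95566770, exon 1 of 3), Bad (chr19:6928154-6928183, exon 2 of 3) and Bcl2l11 (chr2:127989064-127989093, exon 3 of 4). The stretch of Bok, also on the plus strand, was split by an intron and ran from exon 2 into exon 3 of 5, so that its 30 bases spanned 2517 bases of the genome (chr1:93614373-93616889). Bcl2l2 lies at chr14:55120778-55126551 on the plus strand.

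Counts on genes summed to 2204686 to 8367593 per library. The db/db libraries (2204686 to 3059777) were shallower than every CT db library (3624237 to 4840714), and the ob/ob libraries (5306632 to 8367593) deeper than every CT ob library (3664219 to 4847166). Levels are given as CPM, counts per 1000000 counts of the library with edgeR's TMM scaling, and 3 counts, taken as the floor of detection, were worth 0.371 to 1.31 CPM. The mutated genes could not check the labels, since Lep had 0 to 3 counts and Lepr 0 to 17 in a library. All 10 granulosa markers (Fshr, Amh, Inha and others) were detected in every library, and their summed level was 11078 to 15692 CPM in CT ob and 17816 to 27868 CPM in the other 11 libraries. Gja1 alone made up 35.8 to 75.1% of that sum, and without it the CT ob libraries (5316 to 10076 CPM) lay within the range of the others (5296 to 12155 CPM). The summed level of 10 oocyte genes ran from 3.96 to 1135 CPM, that of 7 theca and interstitial genes from 250 to 1443 CPM, that of 8 immune genes from 2.18 to 31.3 CPM and that of 6 endothelial genes from 3.39 to 38.6 CPM. In such bulk libraries, fewer cells of a type and less RNA per cell cannot be told apart.

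The family was dominated by an effector. Per kilobase of annotated exon, Bok stood highest with 141 ± 22.7 CPM per kb (SD, n = 14), above every other member in all 14 libraries. Bok is a BAX-like protein that was first cloned from the ovary and resides largely at the endoplasmic reticulum and Golgi. Unscaled for length, its level was 345 CPM on average, higher than that of 98.9% of the genes with any count in these libraries. It also varied least among libraries, with a coefficient of variation of 16.1%.

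Mcl1 and Bax followed at 28.9 ± 7.44 and 25.6 ± 7.02 CPM per kb (SD, n = 14), and their order was not separated, with Mcl1 above Bax in 10 of 14 libraries. Mcl1 encodes a short-lived pro-survival protein, and Bax the cytosolic effector that moves to mitochondria when activated. When levels were divided by the longest transcript instead of all exons, Bax ranked above Mcl1. Bcl2l1, which encodes BCL-XL, reached 9.44 ± 2.90 CPM per kb, and Bcl2l11, which encodes BIM, 7.35 ± 2.60 CPM per kb (SD, n = 14). Bcl2l1 exceeded Bcl2l11 in 11 of 14 libraries, and this order also turned with the longest transcript.

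The remaining members were low. Bad, which binds BCL2 and BCL-XL when it is not phosphorylated, had 3.30 ± 1.05 CPM per kb, and Bid, which links death receptors to mitochondria, had 2.08 ± 0.660 CPM per kb. Bak1, the effector that sits on mitochondria from the start, had 1.44 ± 0.792 CPM per kb, and Bcl2l2, which encodes BCL-W, had 1.29 ± 0.403 CPM per kb (SD, n = 14). Bak1 and Bcl2l2 could not be ordered, with Bak1 higher in 7 of 14 libraries. The founding member, Bcl2, stood last at 0.656 ± 0.182 CPM per kb and below Bcl2l2 in all 14 libraries. Bak1 was the thinnest measurement, with 5 to 27 counts per library, and varied most (coefficient of variation 55.2%).

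**Figure D1:**
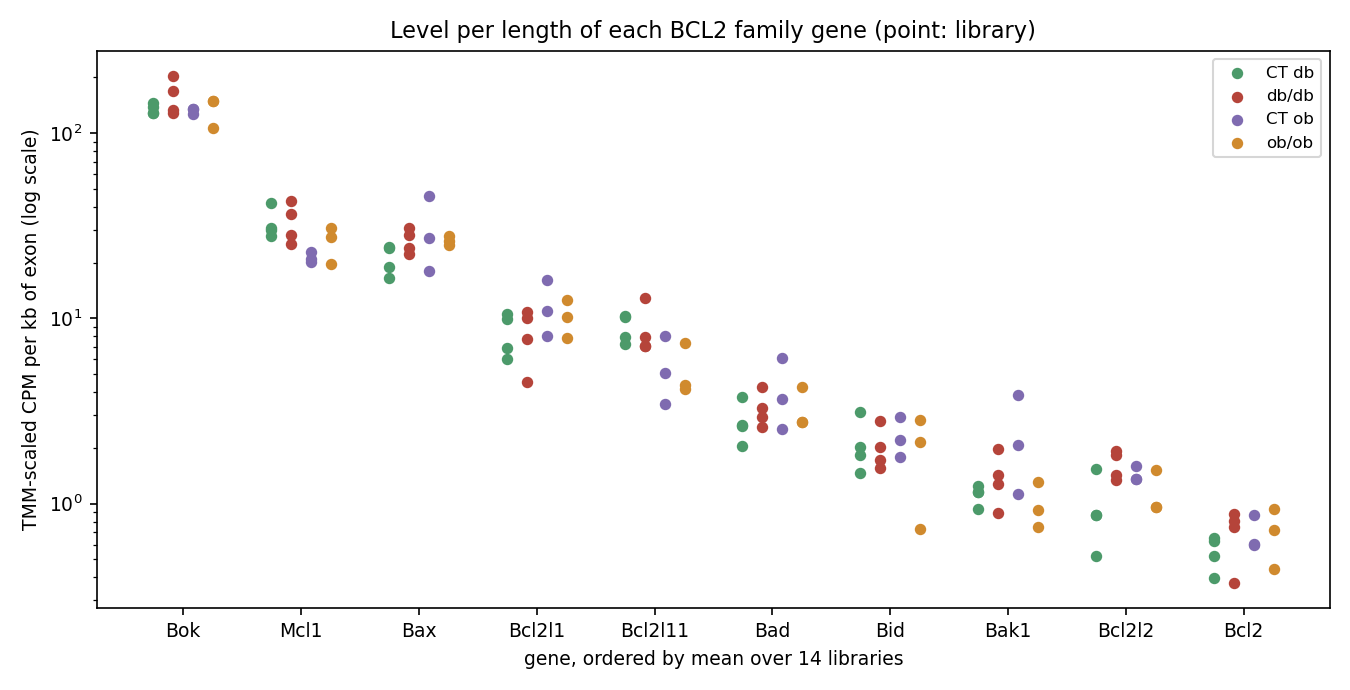
TMM-scaled CPM per kb of annotated exon (log scale) for the 10 genes, with 1 point per library and a colour per group. Bok lies between 106 and 203 CPM per kb in the 14 libraries and Bcl2 between 0.375 and 0.937, while Mcl1 overlaps Bax and Bak1 overlaps Bcl2l2.

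Added up by role, the effectors held 70.9 to 80.6% of the summed level per kb of the 10 genes in a library, the pro-survival genes 13.7 to 22.6% and the BH3-only genes 4.0 to 8.30%. The effector share was 73.7 ± 2.03% in CT db, 76.1 ± 1.46% in db/db (SD, n = 4 each), 77.7 ± 1.58% in CT ob and 76.7 ± 4.23% in ob/ob (SD, n = 3 each). These shares follow Bok above all.

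The reads could not be told apart by strand, and some members share exon sequence with a neighbour in the table. Of the annotated exon bases of Bid, 31.2% overlap Bcl2l13 on the other strand. The overlap was 20.4% for Bad with Gpr137, 18.2% for Bak1 with Ggnbp1 and 11% for Bcl2l2 with Gm20521 and 10.3% for Bax with Gm45808, the last 2 of which lie on the same strand. For Bcl2 it was 6.1% with D630008O14Rik. The levels of these members are uncertain to that extent.

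The comparison of db/db with CT db asked which of these genes differ in GCs without the long leptin receptor. None of the 9 members tested was called by edgeR's quasi-likelihood test at an adjusted p of 0.05 or less, where 0.00884% of the 11317 genes tested were called, and 1 member had an unadjusted p under 0.05, as did 859 of all genes tested. Nor was any member free of overlap between the groups, as 4.14% of all genes tested were. The median log2 fold change was 0.22 over the 9 members and 0.01 over all genes tested. Bak1, with 5 to 13 counts in these libraries, was too low to be tested.

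Among the pro-survival genes, Bcl2l2 had 2.83, 4.66, 4.71 and 8.28 CPM in CT db and 7.22, 7.71, 9.95 and 10.4 CPM in db/db. A single CT db library reached into the range of the mutants. The mean was 1.71-fold that of the controls (log2 fold change 0.77, SE 0.350, adjusted p = 0.654 by edgeR), and the difference did not pass the correction. Mcl1 had 97.5, 104, 108 and 146 CPM in CT db and 88.3, 97.7, 127 and 151 CPM in db/db. These ranges lay almost on each other, and the 95% interval of the log2 fold change ran from -0.40 to 0.44. Bcl2l1 had 31.0, 35.4, 51.1 and 54.0 CPM in CT db and 23.2, 39.8, 51.8 and 55.3 CPM in db/db, with an interval from -0.61 to 0.57. Bcl2 had 3.64, 4.80, 5.80 and 6.03 CPM in CT db and 3.45, 6.92, 7.40 and 8.14 CPM in db/db. For Bcl2, 3 of 4 mutant libraries lay above every control and the other below them all (log2 fold change 0.34, SE 0.351, adjusted p = 0.846 by edgeR).

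Of the effectors, Bax had 30.8, 35.1, 44.4 and 45.3 CPM in CT db and 41.1, 44.4, 52.4 and 57.1 CPM in db/db. The groups overlapped, and the log2 fold change was 0.33 with a 95% interval from -0.06 to 0.71 (adjusted p = 0.694 by edgeR). Bok had 314, 317, 339 and 356 CPM in CT db and 316, 325, 411 and 497 CPM in db/db. The mutant libraries included both values near the controls and the highest of the series (interval from -0.13 to 0.57). Bak1 had 2.26 to 3.02 CPM in CT db and 2.14 to 4.76 CPM in db/db, and with no filter on low counts its log2 fold change was 0.27 with an interval from -0.87 to 1.41.

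The BH3-only genes showed no separation either. Bcl2l11 had 73.1, 80.5, 103 and 104 CPM in CT db and 71.4, 71.6, 79.6 and 130 CPM in db/db. The mutant library at 130 CPM stood apart from the rest of its group, and the log2 fold change of -0.03 became -0.28 without it (adjusted p = 0.768 by edgeR). Bad had 9.21 to 16.8 CPM in CT db and 11.6 to 19.1 CPM in db/db, and Bid 14.4 to 30.5 CPM and 15.2 to 27.4 CPM. Their intervals ran from -0.32 to 0.79 for Bad and from -0.65 to 0.53 for Bid.

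**Figure D2:**
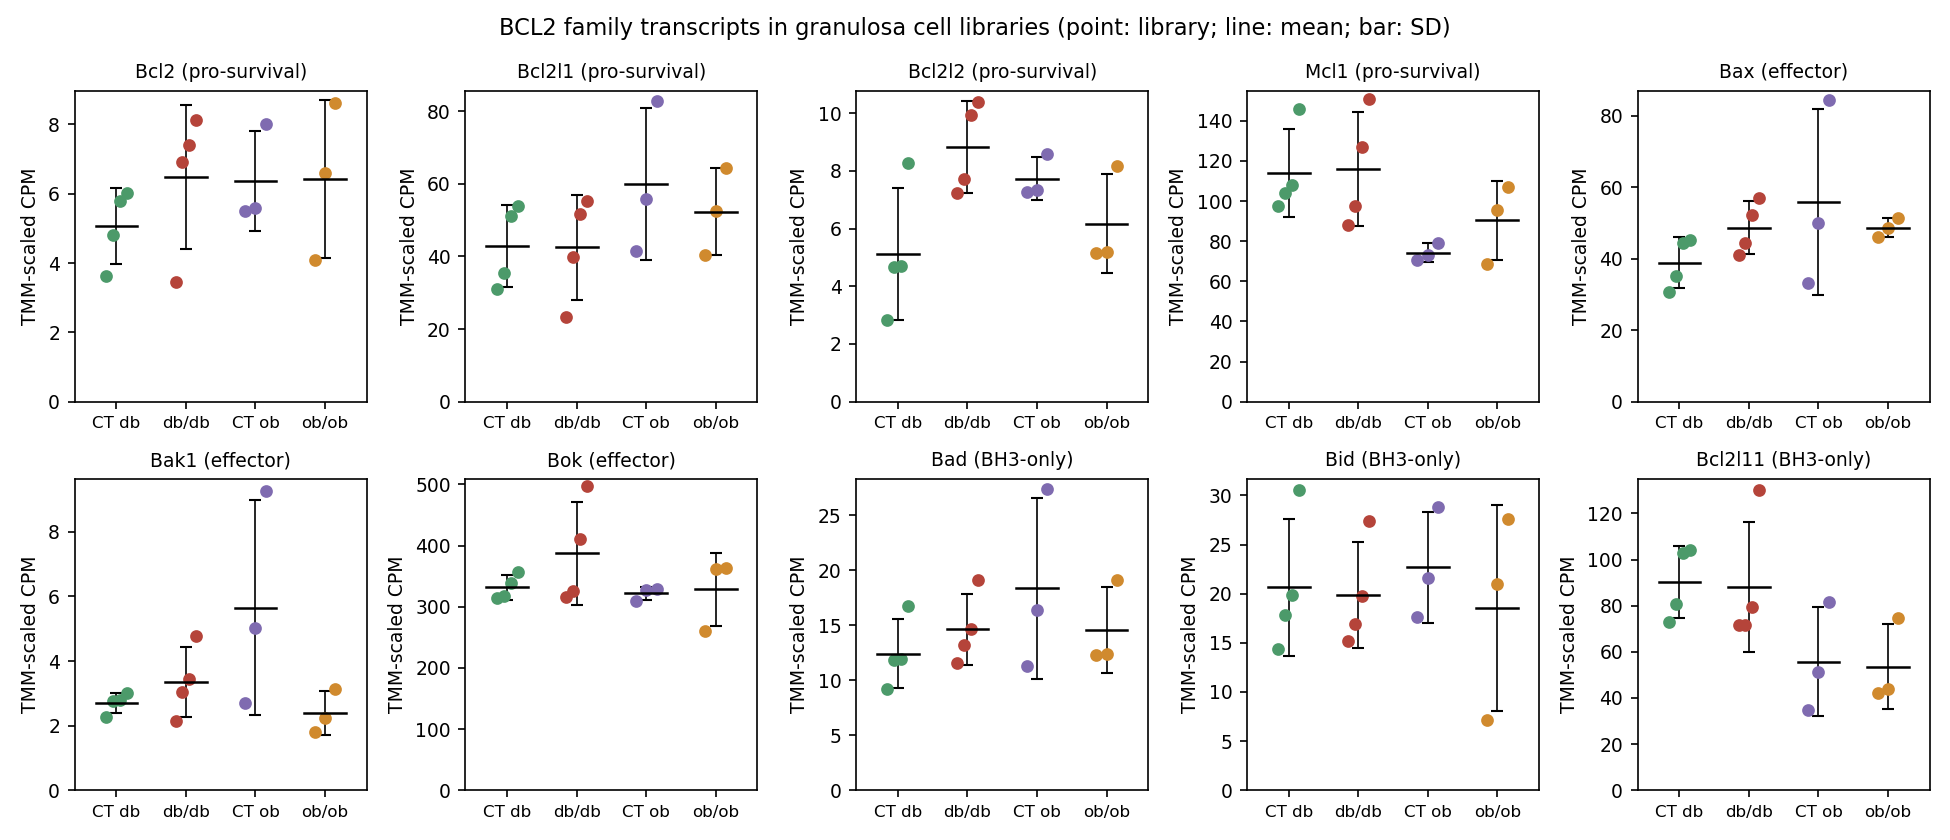
TMM-scaled CPM of each gene in CT db and db/db (4 libraries each) and in CT ob and ob/ob (3 libraries each). Points are libraries, lines are means and bars are SD. The mutants overlap the controls of their own model for every gene, and the CT ob libraries for Mcl1 (70.4 to 79.3 CPM) lie below those of CT db (97.5 to 146 CPM).

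The comparison of ob/ob with CT ob asked the same of GCs without leptin. No member was called, and 0% of the 12425 genes tested were called. No member of the 10 had an unadjusted p under 0.05, against 1014 of all genes tested, and none was free of overlap, as 15.8% of all genes tested were. The median log2 fold change was -0.20 over the 10 members and -0.04 over all genes tested. An exact permutation test of 3 against 3 libraries cannot give a two-sided p below 0.1.

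Bak1 had 2.7, 5.01 and 9.26 CPM in CT ob and 1.81, 2.23 and 3.13 CPM in ob/ob. The control libraries spread widely and the lowest of them lay within the range of the mutants. The log2 fold change was -1.22 (SE 0.564, adjusted p = 0.622 by edgeR) and came to -0.68 without the highest control library. Bax had 33.2, 50.1 and 84.4 CPM in CT ob and 46.2, 48.7 and 51.4 CPM in ob/ob. The mutant libraries all lay inside the range of the controls, and the direction turned from -0.19 to 0.23 without the same control library. Bok had 310, 327 and 329 CPM in CT ob and 260, 362 and 363 CPM in ob/ob. Its mean differed little (log2 fold change 0.02, interval from -0.43 to 0.48).

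For the pro-survival genes, Mcl1 had 70.4, 73.2 and 79.3 CPM in CT ob and 68.6, 95.5 and 107 CPM in ob/ob. The mutant group held both the lowest and the highest values (log2 fold change 0.28, SE 0.205, adjusted p = 0.735 by edgeR). Bcl2l1 had 41.4, 55.9 and 82.7 CPM in CT ob and 40.3, 52.5 and 64.2 CPM in ob/ob. Bcl2l2 had 7.27, 7.33 and 8.58 CPM in CT ob and 5.15, 5.20 and 8.16 CPM in ob/ob. For Bcl2l2, 2 of 3 mutant libraries lay below every control (log2 fold change -0.33, interval from -1.18 to 0.53). Bcl2 had 5.49, 5.59 and 8.02 CPM in CT ob and 4.08, 6.60 and 8.63 CPM in ob/ob, with an interval from -0.96 to 0.98.

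Among the BH3-only genes, Bcl2l11 had 34.7, 51.1 and 81.5 CPM in CT ob and 42.0, 43.9 and 74.7 CPM in ob/ob. The mutant values lay within those of the controls (log2 fold change -0.07, interval from -0.87 to 0.74). Bad had 11.3, 16.4 and 27.4 CPM in CT ob and 12.3, 12.4 and 19.1 CPM in ob/ob. Bid had 17.6, 21.6 and 28.8 CPM in CT ob and 7.10, 21.0 and 27.6 CPM in ob/ob. The ob/ob library at 7.10 CPM was the lowest of all 14 for Bid, and the interval of the log2 fold change was wide, from -1.35 to 0.78.

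**Figure D3:**
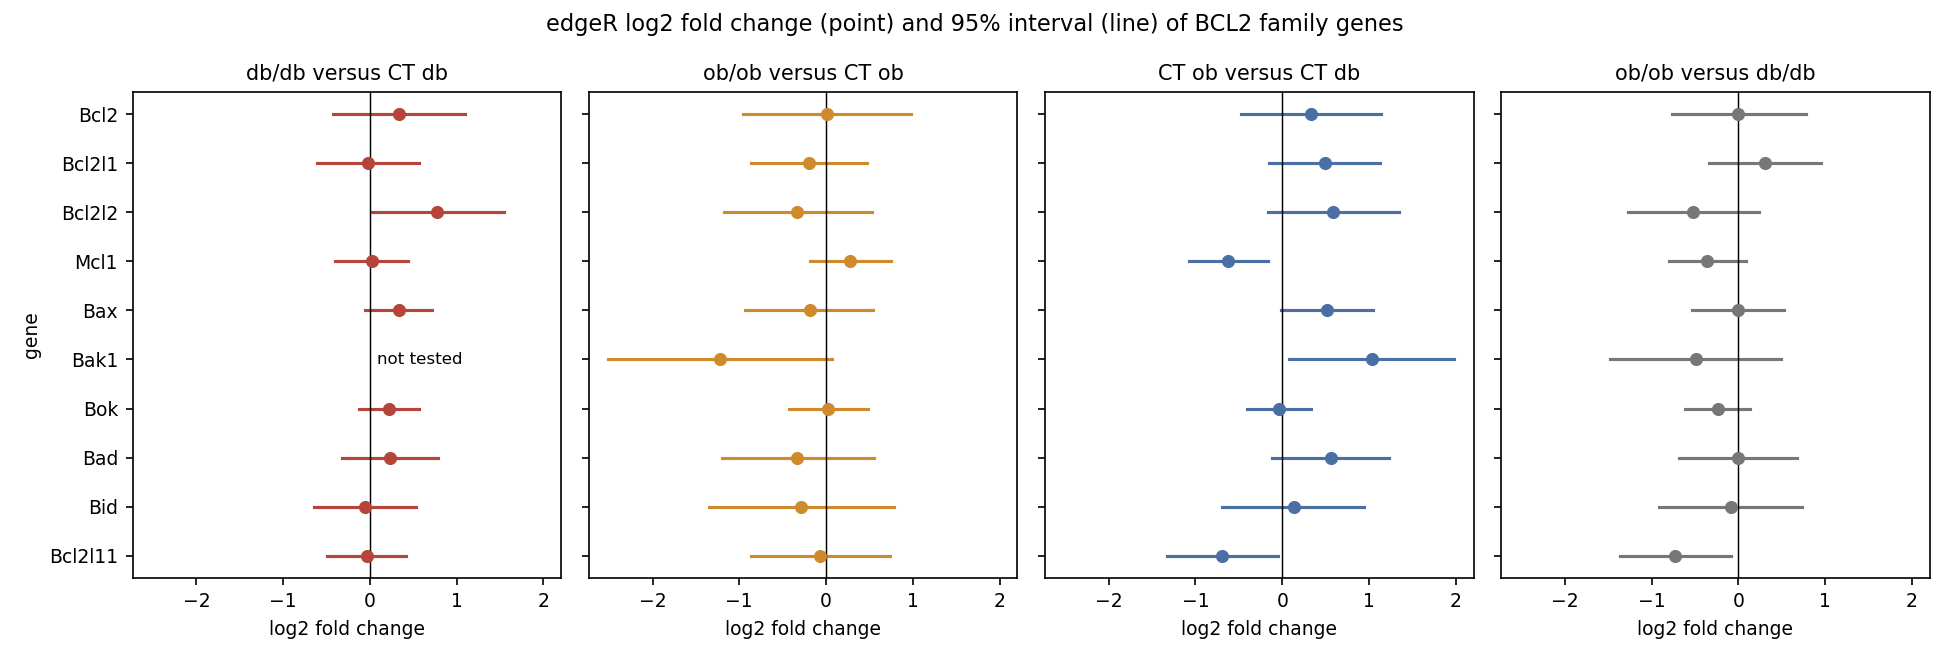
edgeR log2 fold changes (points) with 95% intervals (lines) of the 10 genes in 4 comparisons. In ob/ob against CT ob every interval spans 0, and the interval of Bcl2l2 in db/db against CT db reaches from 0.01 to 1.54. In CT ob against CT db the intervals of Mcl1, Bak1 and Bcl2l11 leave out 0 before correction for the number of genes.

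The mutant effects of the models were compared by an interaction term over all 14 libraries. No member was called, as was the case for 0% of the 12586 genes tested. For Bcl2l2 the effect in ob/ob minus that in db/db was -1.10 (SE 0.501, adjusted p = 0.595 by edgeR). For Bak1 the difference was -1.52 (SE 0.644, adjusted p = 0.572 by edgeR). These were the 2 members with an unadjusted p under 0.05, neither passed the correction, and 1021 of all genes tested had an unadjusted p under 0.05. The other 8 members had unadjusted p-values from 0.167 to 0.930.

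The lean controls of the models were set side by side to see how much the family varied between lean mice of the models. No member was called here, while 6.63% of the 12586 genes tested were called. An unadjusted p under 0.05 was found for 3 of the 10 members and for 26.9% of all genes tested, so the share of the members was near the background. Mcl1 came nearest, with 97.5, 104, 108 and 146 CPM in CT db and 70.4, 73.2 and 79.3 CPM in CT ob. It was the only member whose groups did not overlap, which was so for 21.2% of all genes tested. The mean in CT ob was 1.54-fold lower (log2 fold change -0.62, SE 0.212, adjusted p = 0.0842 by edgeR). A two-sided exact permutation test gave p = 0.0286, the smallest that 3 against 4 libraries allow, and an adjusted p of 0.628 over the 40 exact tests of members. DESeq2 gave an adjusted p of 0.0386 and edgeR without a filter 0.0482, settings under which 1563 and 1727 of all genes were called. The other 20 of 22 alternatives did not pass the threshold, with an adjusted p of up to 0.211 by edgeR.

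Bcl2l11 had 73.1 to 104 CPM in CT db and 34.7, 51.1 and 81.5 CPM in CT ob. A single CT ob library reached into the CT db range. The log2 fold change was -0.69 (SE 0.300, adjusted p = 0.158 by edgeR). With no filter the adjusted p by edgeR was 0.0335. The other 21 of 22 alternatives, by edgeR or DESeq2, did not pass, with an adjusted p of up to 0.423. Bak1 had 2.26 to 3.02 CPM in CT db and 2.7 to 9.26 CPM in CT ob. Its log2 fold change of 1.03 (adjusted p = 0.156 by edgeR) came to 0.48 without the CT ob library at 9.26 CPM. Bax (0.51), Bcl2l1 (0.49), Bcl2l2 (0.59), Bad (0.56), Bcl2 (0.33) and Bid (0.13) had log2 fold changes above 0, none of them called, and Bok was at -0.04 with an interval from -0.41 to 0.33. Of the 10 granulosa markers, 5 had log2 fold changes above 0 and 5 below 0 in this comparison (median -0.10). All 10 oocyte genes had log2 fold changes above 0, with a median of 2.07, 6 at an unadjusted p under 0.05 and none called by edgeR. Their part in the values of the members was not tested.

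Between the mutants, 0.0159% of the genes tested were called and no member was among them, with 1 at an unadjusted p under 0.05, as for 1030 of the 12586 genes tested. No member was free of overlap, as 9.92% of all genes tested were. Bcl2l11 had 71.4 to 130 CPM in db/db and 42.0 to 74.7 CPM in ob/ob (log2 fold change -0.73, SE 0.299, adjusted p = 0.514 by edgeR). The means of Bax were equal at 48.8 CPM, and the interval of its log2 fold change was -0.53 to 0.53. The comparisons within and between models share libraries, so these values are not independent of those above.

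Single libraries drew several members at once. The CT ob library headed obHet_68 had the highest Bax (84.4 CPM), Bak1 (9.26 CPM) and Bad (27.4 CPM) and the lowest Bcl2l11 (34.7 CPM) of all 14. Of the 7 theca and interstitial genes, Hsd3b1 (1291 CPM) and Ptch1 (83.7 CPM) were highest of all 14 in this library, while Cyp17a1 (11 CPM) and Cyp11a1 (45.6 CPM) were not and Insl3 was at 0. Of the 10 granulosa markers, Foxl2 (144 CPM) and Amhr2 (428 CPM) were also highest of all 14 in it, while Gja1 (5615 CPM) was lowest. The lowest TMM factor of the series (0.803) was that of this library, and a lower factor raises every CPM. With RLE or library totals as the scaling, the log2 ratio of mean CPM in ob/ob against CT ob was -0.20 to -0.05 for Bax (TMM -0.20). It was -1.24 to -1.07 for Bak1 (TMM -1.24), -0.34 to -0.18 for Bad (TMM -0.33) and -0.06 to -0.01 for Bcl2l11 (TMM -0.06). The part of the scaling was not tested beyond that. Nor was the part of the theca, interstitial and granulosa genes in the values of the members. The db/db library headed HOM_81 had the highest Bcl2l11 (130 CPM) and the lowest Bcl2 (3.45 CPM) and Bcl2l1 (23.2 CPM). The db/db library headed HOM_53 had the highest Bok (497 CPM) and Mcl1 (151 CPM). The ob/ob library headed obHOM_41 had the lowest Bid (7.10 CPM) and Bak1 (1.81 CPM) and the highest Bcl2 (8.63 CPM).

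Ratios of counts within a library do not depend on the scaling. The ratio of Bax to Bcl2, often used as a measure of how ready a cell is to die, was 7.83 ± 1.46 in CT db, 8.62 ± 4.57 in db/db (SD, n = 4 each), 9.19 ± 5.36 in CT ob and 8.41 ± 3.67 in ob/ob (SD, n = 3 each). The means lay within 1 SD of each other, and single libraries ran from 5.05 to 15.4. The ratio of Bax to Bcl2l1 ran from 0.822 to 0.993 in CT db and from 0.744 to 2.26 in db/db. The controls lay inside the wider range of the mutants. In CT ob it ran from 0.606 to 1.51 and in ob/ob from 0.759 to 1.15.

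The ratio of Bcl2l11 to Mcl1, a BH3-only protein and a pro-survival protein that binds it, was 0.805 ± 0.179 in CT db, 0.810 ± 0.372 in db/db, 0.759 ± 0.339 in CT ob and 0.647 ± 0.384 in ob/ob. The lowest library was at 0.393 and the highest at 1.33, and all groups overlapped. The ratio of Mcl1 to Bcl2l1 was 1.81, 2.11, 3.37 and 4.14 in CT db and 0.885, 1.42 and 1.70 in CT ob. The control groups did not overlap in this ratio, while db/db (1.60 to 4.20) overlapped CT db and ob/ob (1.49 to 2.03) overlapped CT ob. Mcl1 by itself also did not overlap between these controls, which was so for 21.2% of all genes tested. No such share was worked out for ratios, so the ratio is not a result apart from Mcl1. The ratio of Bok to Bax ran from 3.88 to 10.3 over all libraries, and all groups overlapped.

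**Figure D4:**
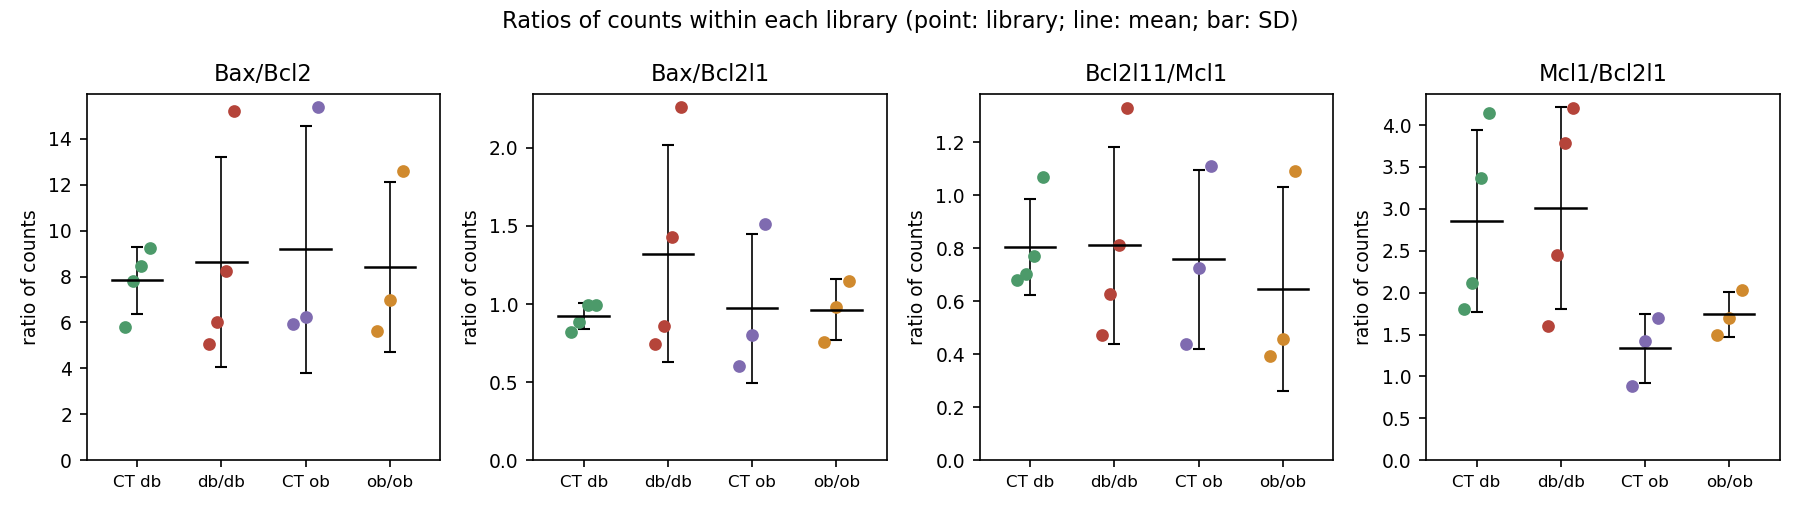
Ratios of the counts of 2 genes in the same library, by group, with points for libraries, lines for means and bars for SD. The ratios of Bax to Bcl2, Bax to Bcl2l1 and Bcl2l11 to Mcl1 overlap among all groups, and that of Mcl1 to Bcl2l1 is 1.81 to 4.14 in CT db and 0.885 to 1.70 in CT ob.

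Beyond the 10 members, 18 further genes of the wider family were listed, and 7 of them had at most 3 counts in every library. These were the BCL2A1 genes Bcl2a1a, Bcl2a1b and Bcl2a1d, the p53 targets Bbc3 (PUMA) and Pmaip1 (NOXA), and Bcl2l15 and Bnipl. At most 14 counts were reached by Bmf, 5 by Bik, 4 by Hrk and 6 by Bcl2l14. Of the BH3-only genes, then, Bcl2l11, Bid and Bad were measured well above the floor and the p53 targets were not detectable at this depth. Bnip3 (83 to 1308 counts in a library) and Bnip3l (342 to 1586) encode mitochondrial receptors for mitophagy, and Bnip2 (290 to 1110), Bcl2l13 (175 to 703), Bnip1 (109 to 420) and Bcl2l12 (16 to 60) made up the rest of those detected in every library.

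Bcl2l10, a family gene known for its high level in oocytes, stood apart. It had 1.70, 2.47, 14.4 and 23.1 CPM in CT db and 1.29, 2.2, 3.03 and 5.66 CPM in db/db. In the other model there were 6.86, 15.8 and 80.2 CPM in CT ob and 13.6, 24.6 and 67.9 CPM in ob/ob. In every group the library with the most Bcl2l10 was the one with the highest summed oocyte genes, at 263, 67.9, 1135 and 763 CPM in that order. The cells came from complexes of GCs and oocytes from which the oocytes were stripped. The log2 fold change of Bcl2l10 was -1.81 in db/db against CT db (adjusted p = 0.632 by edgeR) and 3.54 in ob/ob against db/db (adjusted p = 0.344 by edgeR). The oocyte genes had a median of -1.90 over the 5 tested in the first comparison and of 3.47 over all 10 in the second. Whether the gene is transcribed in GCs was not tested.

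**Figure D5:**
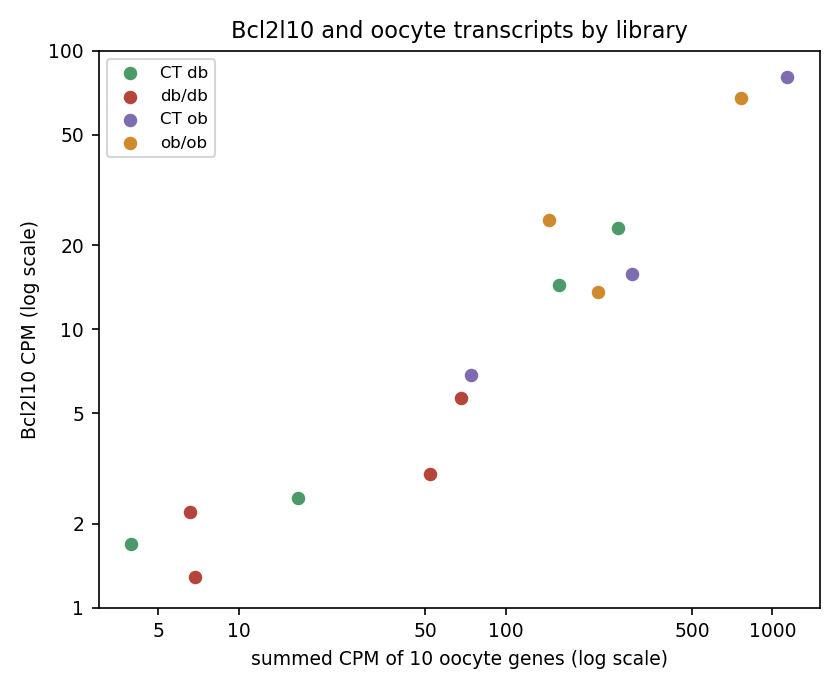
Bcl2l10 CPM against the summed CPM of 10 oocyte genes (Zp3, Gdf9 and others), both on log scales, with 1 point per library and a colour per group. Libraries with oocyte sums of 3.96 to 16.7 CPM had 1.29 to 2.47 CPM of Bcl2l10, and those at 763 and 1135 CPM had 67.9 and 80.2 CPM.

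The genes around the family were counted from 6 lists of 76 genes in all: other BCL2 family genes, caspases and the apoptosome, caspase inhibitors and proteins released from mitochondria, outer membrane partners, upstream regulators, and death receptors with their ligands. In db/db against CT db, 0 of the 62 tested were called, 8 had an unadjusted p under 0.05, as did 7.59% of all genes tested, and the median log2 fold change was 0.04. The smallest p-values belonged to Tnfsf10, which encodes the death ligand TRAIL (log2 fold change 1.11, adjusted p = 0.526 by edgeR), Ywhab, a 14-3-3 protein (-0.38, 0.567), and Vdac3, a channel of the outer membrane (-0.33, 0.608). In ob/ob against CT ob, 0 of 62 were called, 9 had an unadjusted p under 0.05, as did 8.16% of all genes tested, and the median was -0.02. Bnip3 (1.39) and Casp9, the initiator caspase of the apoptosome (-0.70), were among those with the smallest p-values, each with an adjusted p of 0.539 by edgeR. All 9 genes of the caspase and apoptosome list were detected in every library, with summed levels of 553 to 760 CPM.

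In CT ob against CT db, 5 of 63 were called, all lower in CT ob, and 21 had an unadjusted p under 0.05. These shares stood beside 6.63% called and 26.9% at that unadjusted p over all genes tested, of which 552 of the 834 called were lower in CT ob. The 5 were Bnip3l (log2 fold change -0.59, adjusted p = 0.0397 by edgeR), Casp2, an initiator caspase (-0.50, 0.0374), the 14-3-3 gene Ywhaq (-0.82, 0.0408), Usp9x, a deubiquitinase that stabilises MCL1 (-0.80, 0.0446), and Tsc22d3, a glucocorticoid-induced leucine zipper gene (-0.75, 0.0326). Of the 10 granulosa markers, 2 were called, both lower in CT ob: Fshr, the receptor for follicle-stimulating hormone (-1.72, 0.0163), and Gja1, the main gap junction gene of GCs (-1.47, 0.00221). Among the other 8, Amh (1.31, 0.250), Amhr2 (0.88, 0.0886) and Foxl2 (0.57, 0.118) had values above 0 and were not called (named after their values were seen). With the control libraries alone in the fit, none of the 7 called genes kept its call, at adjusted p-values from 0.0524 to 0.117, with log2 fold changes from -0.52 to -1.74. Leaving out each of the 14 libraries in turn kept the call of Gja1 14 times, that of Fshr 13 times and those of the other 5 genes 4 to 9 times. Between the mutants and in the interaction, 0 of 63 were called.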

How the data were processed

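RNA-seq counts of 14 granulosa cell libraries were used. The authors deposited whole-number counts per gene, made from single reads of 75 bp with cutadapt, STAR (GRCm39) and featureCounts by the paper, while the submitters' processing notes name Trim Galore 0.6.2, HISAT2 2.1.0 and GRCm38. Strand setting and treatment of multiply mapped reads are not given in the sources used here. Columns were assigned to groups by their headings, which carry no replicate number of the labels. Depth was 2204686 to 8367593 counts, and without molecular identifiers floors cover counting error only.

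Symbols and exon lengths came from GENCODE M39 (98.8% of identifiers matched). edgeR 4.0.16 in R 4.3.3 was used with TMM, filterByExpr (minimum count 10, minimum total 15), quasi-likelihood tests and Benjamini-Hochberg adjustment over all genes tested, called at 0.05. Each model was fitted on its own, and 1 fit of 14 libraries served the other comparisons. The 95% intervals use the quasi-likelihood degrees of freedom. Tests were checked on simulated counts. Alternatives were RLE, library totals, other filters, DESeq2 1.42.0, robust fitting, thinning, other samples in the fit and leaving out each library.

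All 10 members were named, with every other BCL2 family gene listed, every listed gene called, and genes from among the 3 smallest p-values over the pathway lists in each model. Members and lists were chosen with earlier results of these data known. A further result is not reported here.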

Additional observations from a re-analysis of the deposited data

Results flagged for a closer look

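Of 20 values of members by group in the 4-library groups, 1 had a library that stood far from the others of its group, and chance alone marks about 1 in 20. Bcl2l11 in db/db was 130 CPM in 1 library, with the next at 79.6 CPM and the lowest at 71.4 CPM, a gap of 0.858 of the whole range. The same library had the lowest Bcl2 and Bcl2l1 of the 14. Groups of 3 libraries were not examined in this way.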

How the results depend on the processing

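No paired analysis was possible because the columns carry no replicate numbers of the labels. No member was called under any setting in db/db against CT db, ob/ob against CT ob, ob/ob against db/db or the interaction. In CT ob against CT db, 2 members were called with no filter on low counts, beside 1727 of all genes. They were Mcl1 at -0.66 and Bcl2l11 at -0.71. DESeq2 called 1 member (Mcl1 at -0.63) beside 1563 of all genes. No share of all genes tested is given for these settings, so the calls are not read as a result about the members. Over members and comparisons, 878 of 927 alternatives were counted as keeping the direction and the side of the threshold. Another sign was found in 46, and 3 passed the threshold. A main value that rounded to 0.00 had no direction to lose, so its alternatives were counted as kept whatever their sign. In ob/ob against db/db this held for Bcl2 (-0.28 to 0.24 with single libraries left out), Bax (-0.07 to 0.08) and Bad (-0.25 to 0.15).

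Calls among all genes moved more, and the cause was not tested. For db/db against CT db (main count 1) there were 270 with no filter, 44 with DESeq2, 2 with library totals, and 0 with at least 10 counts in every library or with all 14 libraries in the fit. For ob/ob against CT ob (main count 0) there were 359 with no filter, 86 with DESeq2 and 1 with all 14 libraries. For CT ob against CT db (main count 834) there were 1727 with no filter, 1563 with DESeq2, 261 with library totals and 3 with the control libraries only. For ob/ob against db/db (main count 2) there were 535 with no filter, 72 with DESeq2, 1 with at least 10 counts in every library and 4 with the mutant libraries only. For the interaction (main count 0) there were 329 with no filter and 72 with DESeq2. Leaving out single libraries gave 1 to 4 calls for db/db, 112 to 1196 for CT ob against CT db (138 without het_51, 482 without het_69, 201 without het_75, 376 without obHet_60, 112 without obHet_68) and 0 to 1 for the interaction.

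The signs that turned belonged to log2 fold changes of at most 0.33 in size, none of them called. In db/db against CT db, library totals gave 0.03 for Bcl2l1 and 0.04 for Bcl2l11, and no filter gave -0.01 for Mcl1. In the interaction, no filter gave 0.03 for Bcl2l11. With single libraries left out, db/db against CT db ran from -0.18 to 0.19 for Bcl2l1, from -0.13 to 0.16 for Mcl1, from -0.25 to 0.18 for Bid and from -0.28 to 0.06 for Bcl2l11. The values for ob/ob against CT ob ran from -0.26 to 0.26 for Bcl2, from -0.41 to 0.11 for Bcl2l1, from -0.46 to 0.23 for Bax, from -0.05 to 0.17 for Bok, from -0.57 to 0.08 for Bad, from -0.69 to 0.11 for Bid and from -0.38 to 0.32 for Bcl2l11. Bid ran from -0.09 to 0.37 in CT ob against CT db and from -0.51 to 0.29 in ob/ob against db/db. In the interaction, Bcl2l1 ran from -0.39 to 0.13, Bcl2l11 from -0.35 to 0.34 and Bid from -0.63 to 0.17. In ranks by level per kb, the longest transcript exchanged Mcl1 with Bax, Bcl2l1 with Bcl2l11 and Bak1 with Bcl2l2. With 3 or 4 libraries a group, intervals stayed wide, from -2.51 to 0.07 for Bak1 in ob/ob against CT ob. The refits of the 7 listed genes called between the controls were chosen after seeing the data.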
